A study of Mus musculus with 6 samples.

Results

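The first step of blood stem cell differentiation was examined in Control mice by comparing DNA methylation in short-term haematopoietic stem cells (ST-HSC) with that in long-term haematopoietic stem cells (LT-HSC). The comparison took every autosomal cytosine position, defined by chromosome, base and strand, that had at least 10 reads in both libraries. There were 808108 such positions among 1325626 autosomal positions seen in any of the 6 libraries of the series. They filled 36889 windows of 1 kb with at least 5 such positions, out of 57793 windows that held at least 5 positions in the whole series. The windows were chosen from coverage alone, and no methylation value entered the choice.

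The assay was enhanced reduced representation bisulfite sequencing, in which CpG-rich restriction fragments are read after bisulfite has turned unmethylated cytosine into a base read as T. The Control ST-HSC library came from cells sorted as Lin- Sca+ Kit+ CD150+ CD48+, and the Control LT-HSC library from Lin- Sca+ Kit+ CD150+ CD48- cells. Both groups were male C57BL/6 mice of genotype IDH1+/+ VavCre+, aged 7 to 10 months, with marrow pooled from 6 mice per group. Both therefore carried the Cre recombinase driven by the blood-cell promoter Vav, and neither carried the Idh1 knock-in allele. The 4 other libraries were Control multipotent progenitors (MPP, sorted as CD150-) and the ST-HSC, LT-HSC and MPP of IDH1+/lsl VavCre+ littermates, called KI here. Each group was 1 pooled library, so no difference below carries a replicate error or a test between conditions. The sources used here do not say whether the ST-HSC and LT-HSC were sorted from the same pool of 6 mice.

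LT-HSC sit at the top of the blood hierarchy, divide rarely and can rebuild blood for life, whereas ST-HSC divide more and sustain blood for a limited time before giving rise to MPP. Methyl groups on CpG cytosines are copied at cell division by Dnmt1, laid down anew by Dnmt3a and Dnmt3b, and oxidised for removal by the Tet enzymes. CpG-rich gene starts are mostly unmethylated in any tissue, while methylation at a start is commonly found with a silent gene. Homeobox genes of the Hoxa cluster, which encode transcription factors of body patterning, are active in early blood progenitors and shut off later.

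Some of the starts with the largest differences are printed with their sequences, from 250 bases before to 50 bases after the start. They run 5′ to 3′ on the strand of the gene, as given by RefSeq for GRCm38.p6 (the same build as mm10). Capitals mark the CpGs that were covered in both Control libraries inside the printed stretch. Hoxa5 is printed because its start had the largest excess in ST-HSC among starts with at least 10 measured positions. The next 3 stretches are printed because their starts were at least 10 points higher in the KI pair as well. Muc20 and Slc22a3 are printed as the largest deficits among such starts. The stretches lie at chr6:52204538-52204837 (minus strand, Hoxa5), chr6:52176905-52177204 (plus, 5730596B20Rik), chr9:110624344-110624643 (minus, Nradd), chr8:3392758-3393057 (plus, Arhgef18), chr16:32797386-32797685 (minus, Muc20) and chr17:12507655-12507954 (minus, Slc22a3).
Hoxa5: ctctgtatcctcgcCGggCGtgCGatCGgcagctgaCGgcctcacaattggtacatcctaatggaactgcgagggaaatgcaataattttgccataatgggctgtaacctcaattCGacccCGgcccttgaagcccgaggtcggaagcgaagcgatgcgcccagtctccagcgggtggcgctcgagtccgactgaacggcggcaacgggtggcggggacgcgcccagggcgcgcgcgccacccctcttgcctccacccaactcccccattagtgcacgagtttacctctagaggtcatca
5730596B20Rik: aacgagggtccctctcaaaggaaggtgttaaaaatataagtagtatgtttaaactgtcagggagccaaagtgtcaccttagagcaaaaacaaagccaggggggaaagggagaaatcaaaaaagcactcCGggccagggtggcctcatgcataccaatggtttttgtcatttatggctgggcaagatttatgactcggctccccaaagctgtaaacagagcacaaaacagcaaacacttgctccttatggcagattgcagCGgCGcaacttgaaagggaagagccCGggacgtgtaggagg
Nradd: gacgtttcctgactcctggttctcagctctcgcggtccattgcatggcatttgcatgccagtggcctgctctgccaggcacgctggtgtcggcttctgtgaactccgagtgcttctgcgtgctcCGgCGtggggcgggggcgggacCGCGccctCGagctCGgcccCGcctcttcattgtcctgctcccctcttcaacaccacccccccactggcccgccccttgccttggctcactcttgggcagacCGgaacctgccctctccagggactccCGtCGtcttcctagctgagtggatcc
Arhgef18: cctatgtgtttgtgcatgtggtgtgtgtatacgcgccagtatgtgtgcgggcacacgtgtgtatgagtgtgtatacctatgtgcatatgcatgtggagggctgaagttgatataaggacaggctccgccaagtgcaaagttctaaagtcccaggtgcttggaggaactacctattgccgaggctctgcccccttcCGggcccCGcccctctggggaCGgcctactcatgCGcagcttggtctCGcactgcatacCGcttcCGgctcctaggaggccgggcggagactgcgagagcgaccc
Muc20: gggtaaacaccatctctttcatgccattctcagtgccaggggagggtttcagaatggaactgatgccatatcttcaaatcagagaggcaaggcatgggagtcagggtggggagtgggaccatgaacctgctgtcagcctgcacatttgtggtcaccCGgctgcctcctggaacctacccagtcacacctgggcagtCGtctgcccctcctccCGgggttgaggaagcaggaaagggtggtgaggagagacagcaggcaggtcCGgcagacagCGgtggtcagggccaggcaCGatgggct
Slc22a3: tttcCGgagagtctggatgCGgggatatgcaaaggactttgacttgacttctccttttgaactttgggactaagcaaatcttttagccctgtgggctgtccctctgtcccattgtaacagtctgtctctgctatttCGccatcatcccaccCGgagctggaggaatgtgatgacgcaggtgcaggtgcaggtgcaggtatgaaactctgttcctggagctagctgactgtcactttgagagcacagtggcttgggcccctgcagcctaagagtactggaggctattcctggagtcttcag

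The printed Hoxa5 stretch held 29 CpGs, of which 7 were measured, and those 7 averaged 81.2% in ST-HSC against 34.3% in LT-HSC. The 4 measured CpGs of the 5730596B20Rik stretch averaged 77.1% in ST-HSC and 30.2% in LT-HSC. In the Muc20 stretch, which has only 6 CpGs, the measured positions averaged 56.1% in ST-HSC and 90.8% in LT-HSC. The Nradd stretch was closer, with 25.3% in ST-HSC and 18.8% in LT-HSC over 11 positions, so most of the difference at that start lay outside it. The Arhgef18 stretch had 24.3% in ST-HSC and 8.76% in LT-HSC, and the Slc22a3 stretch 36.4% in ST-HSC and 51.9% in LT-HSC. All 6 stretches contain CCGG, on which the reduced representation method commonly cuts, as do 53.5% of 31396 autosomal promoters of the same length. The motif reads the same on both strands.

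The Control ST-HSC library held 39461301 reads, summed as coverage over positions, and the Control LT-HSC library 48966606. At the positions covered in both, the median coverage was 34 reads in ST-HSC and 43 reads in LT-HSC. These positions made up 87.7% of the autosomal positions of the ST-HSC library and 85.7% of those of the LT-HSC library. Both libraries carry lane number 6 in their deposited names, with no flow cell given. Methylation cannot check the sort directly, but of 30 marker genes of stem cells, lineage cells and non-blood cells, 8 had a measured start and all 8 lay within 10 percentage points (points below) between ST-HSC and LT-HSC. So did nearly all starts, with 0.896% at least 10 points higher in ST-HSC and 1.21% lower. Those 8 were Cd34, Mecom, Ctnnal1, Pf4, Flt3, Fgd5, Hlf and Itga2b.

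Over the whole set of positions the methylomes lay close together. The mean level, with each position counted equally, was 29.9% in ST-HSC and 30.3% in LT-HSC, a difference of -0.410 points, and the median difference was 0. The difference was below 0 on 19 of 19 autosomes, between -0.492 and -0.340 points, with an SD over autosomes of 0.0491. Autosomes of 1 library share the sort and the library preparation, so this spread is not a replicate error. Weighted by reads the sign turned, with 28.3% in ST-HSC and 26.8% in LT-HSC, a difference of 1.50 points.

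Both libraries held mostly low and high positions, as is usual for mammalian CpGs. In ST-HSC 65.2% of positions were under 20% methylated, 10.3% lay between 20 and 80% and 24.5% were above 80%. In LT-HSC the shares were 64.9%, 9.88% and 25.2% in the same order. Positions were then divided by the mean of the 2 MPP libraries, which belong to neither side of the comparison. Positions under 20% there averaged 2.98% in ST-HSC and 3.05% in LT-HSC, and positions over 80% averaged 93.8% in ST-HSC and 94.9% in LT-HSC. Positions between 20 and 80% in MPP averaged 37.0% in ST-HSC and 37.4% in LT-HSC, but there single positions scattered widely about that small shift, with an SD of 21.5 points over 62749 positions.

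At single positions the reads of both libraries were compared with Fisher's exact test and Benjamini-Hochberg adjustment over all 808108 positions. Such a test compares 2 libraries, not the cell types. At an adjusted p under 0.01 and at least 25 points, 8472 positions were higher in ST-HSC (1.05% of those tested) and 10279 were lower (1.27%). The strands of a CpG give a check within the libraries, because methylation of a CpG is normally the same on both. Of 112743 CpGs covered on both strands in both libraries, 928 were called higher on the forward strand and 933 on the reverse strand, but only 46 on both. Likewise 1101 were called lower on the forward strand and 1067 on the reverse strand, with 57 lower on both, and 62 were called in opposite directions. At 2935 CpGs that were 20 to 80% methylated in MPP on both strands, the strands differed by a mean of 16.3 points within the ST-HSC library and 19.11 points within the LT-HSC library. The ST-HSC and LT-HSC libraries differed by a mean of 16.6 points at the forward and 17.1 points at the reverse positions of the same CpGs. Both of these values lie between the strand differences measured within the libraries.

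Windows of 1 kb pool several positions. In 93.1% of the 36889 windows ST-HSC and LT-HSC differed by less than 10 points. A further 1079 windows were at least 10 points higher in ST-HSC (2.92%) and 1468 at least 10 points lower (3.98%). Windows past 10 points had a median of 6 positions, against 10 for all windows. They were also shallower. Median reads per position were 33.4 in ST-HSC and 40.4 in LT-HSC among the higher ones, and 34 and 39.2 among the lower ones. Over all windows they were 39.2 in ST-HSC and 50.1 in LT-HSC. Only 16 of the 1079 higher windows and 28 of the 1468 lower windows lay next to another of their kind, in runs of at most 2. At the minimum of 5 positions, 6735 windows had exactly 5, with 5.79% of them at least 10 points higher and 8.91% lower. The 10264 windows with exactly 4 positions, which were left out, had 6.89% higher and 11.1% lower.

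The strand check was carried to the windows by taking the forward and the reverse positions as separate measurements, with at least 3 positions on each. Among 24546 such windows, 153 were at least 10 points higher in ST-HSC on both strands (0.623%) and 184 lower on both (0.75%), while 206 passed 10 points in opposite directions. The correlation of the strand differences over the windows was 0.0793, and 0.0883 over the 1684 windows that were 20 to 80% methylated in MPP. The points share the same pair of libraries and differ in depth, so these are descriptions. The plot of the strand differences shows the cloud about 0 and the corners in which the 153 and 184 windows lie. The 206 windows in opposite directions show how often both strands passed 10 points without a common direction.

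**Figure D1:**
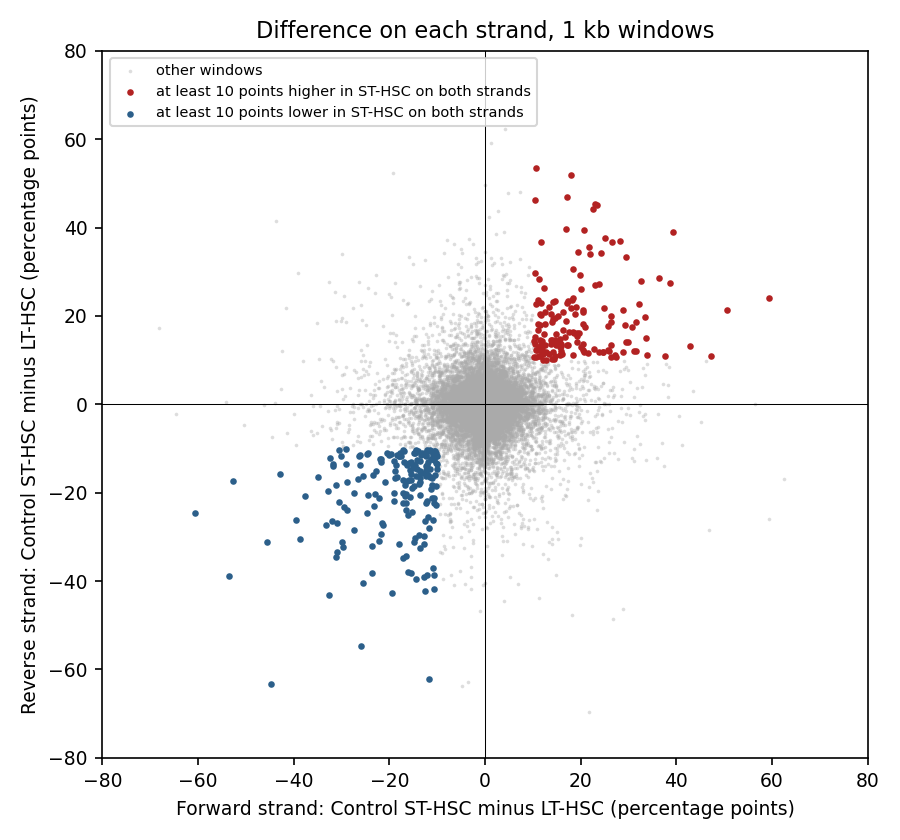
Difference in methylation (ST-HSC minus LT-HSC, percentage points) of 24546 windows of 1 kb on the forward strand (x axis) and on the reverse strand (y axis); each point is 1 window. The 153 red windows were at least 10 points higher in ST-HSC on both strands and the 184 blue windows at least 10 points lower, and most windows form a round cloud about 0.

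Differences past 10 points were most frequent where methylation was neither low nor high. Counting error of a percentage is also largest there, and its part in these shares was not tested. Of 2853 windows between 20 and 80% in MPP, 14.1% were at least 10 points higher in ST-HSC and 16.6% lower. Of 19335 windows under 20% in MPP, 0.652% were higher and 0.890% lower, and of 10591 windows over 80%, 2.98% were higher and 4.48% lower. On both strands, 82 were higher and 91 lower of 1684 windows between 20 and 80%. The counts were 17 and 19 of 16783 windows under 20%, and 39 and 52 of 5090 over 80%. By position in the genome, outside chromosome 18, for which no gene starts were in the table used, 14072 windows overlapped a gene start (from 1000 bases before to 500 after it). Of these 1.36% were at least 10 points higher in ST-HSC and 1.67% lower. The shares were 3.57% higher and 5.02% lower among 16341 windows inside genes, and 5.29% higher and 6.85% lower among 5402 intergenic windows. Restricted to windows of 20 to 80% in MPP, the share higher was 13.2% at gene starts, 13.95% inside genes and 16.1% between genes, and the share lower was 12.02% at gene starts, 17.8% inside genes and 17.5% between genes. The median level of all windows was 8.76% in ST-HSC and 8.75% in LT-HSC. The 153 windows higher on both strands had a median of 50.1% in ST-HSC against 30.1% in LT-HSC, and the 184 lower ones had 58.1% in ST-HSC against 79.8% in LT-HSC.

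Described here are 9 of the 10 windows with the largest excess in ST-HSC among those past 10 points on both strands. The largest was in Arid1b, a subunit of SWI/SNF chromatin remodelling complexes, at chr17:5152001-5153000. It stood at 79.8% in ST-HSC against 38.1% in LT-HSC over 6 positions, with 218 reads in ST-HSC and 355 in LT-HSC, and the Control MPP library had 56.7%. Reads of a window or start are given here and below as coverage summed over its positions. A window 3170 bases from the start of Gm34657 on chromosome 2 (75772001 to 75773000) stood at 47.3% in ST-HSC against 8.12% in LT-HSC. All 7 of its positions were called higher by Fisher's exact test, the forward strand differed by 39.4 points and the reverse strand by 39.0.

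The window with the most positions lay inside Rnf220, which encodes an E3 ubiquitin ligase, and the lncRNA gene Gm12843 on chromosome 4 (117304001 to 117305000). Over 36 positions it had 45.5% in ST-HSC against 11.9% in LT-HSC, with 1130 reads in ST-HSC and 1750 in LT-HSC. Of its 36 positions 34 were higher in ST-HSC and 13 were called, and Control MPP stood at 89.5%. H2-DMa, a chaperone of peptide loading onto MHC class II, had a window at 84.5% in ST-HSC against 50.8% in LT-HSC over 13 positions. A window in Kiss1r, the kisspeptin receptor, had 54.4% in ST-HSC and 20.9% in LT-HSC, also over 13 positions.

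A further 4 windows were in Trpm1, a cation channel gene (41.5% in ST-HSC, 7.38% in LT-HSC), at the start of Ano2, a calcium-activated chloride channel gene (82.2% in ST-HSC, 49.7% in LT-HSC), and at 2 intergenic places. The intergenic window on chromosome 12, 102966 bases from Lpin1, had 51.3% in ST-HSC and 17.97% in LT-HSC. The intergenic window on chromosome 2 nearest to 9330198N18Rik had 49.2% in ST-HSC and 14.5% in LT-HSC with positions counted equally. Weighted by reads, that last difference was 6.04 points, so it was carried by positions with few reads.

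The window with the largest deficit in ST-HSC lay between genes at chr5:112098001-112099000, 21913 bases from Gm30032. It had 42.8% in ST-HSC against 93.7% in LT-HSC over 9 positions, all of them lower in ST-HSC, with 122 reads in ST-HSC and 116 in LT-HSC. Next was the stretch just upstream of Slc22a3, an organic cation transporter, at chr17:12508001-12509000, with 46.0% in ST-HSC against 89.2% in LT-HSC. It was read 777 times in ST-HSC and 839 times in LT-HSC, and 9 of its 10 positions were called lower.

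Aoc1, the histamine-degrading diamine oxidase, had a window at 31.2% in ST-HSC against 73.9% in LT-HSC. At the start of Fam32a the level was 2.92% in ST-HSC and 42.3% in LT-HSC over 7 positions, with 271 reads in ST-HSC and 418 in LT-HSC. The window at the start of Gm30543, inside Ltbp4 (a binding protein of latent TGF-beta), had 23.97% in ST-HSC and 62.8% in LT-HSC over 12 positions, of which 8 were called lower. In Ung, the uracil-DNA glycosylase of base excision repair, a window had 62.7% in ST-HSC and 99.7% in LT-HSC, but only 126 reads in ST-HSC and 203 in LT-HSC, and no position of it was called. The remaining 4 windows, at chr17:23523001-23524000, near Crabp1, in the pseudogene Gm11405 and near Rab42, differed by -40.3, -34.2, -32.9 and -32.1 points. For the 10 windows with an excess and the 10 with a deficit, the 95% Wilson intervals on summed reads did not overlap between ST-HSC and LT-HSC, except in the window nearest to 9330198N18Rik. These intervals cover counting error only, and PCR copies of 1 molecule are not independent reads. Summed reads also count a read once for every position it covers, so the intervals are too narrow. The windows were also chosen for their large differences in these same reads, so the lack of overlap is no separate evidence.

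Gene starts, from 1000 bases before to 500 bases after the annotated start, were nearly all unmethylated in both cell types. Of 11044 starts with at least 5 positions, 93.2% were under 20% in both, and the medians were 3.002% in ST-HSC and 3.12% in LT-HSC. At least 10 points higher in ST-HSC were 99 starts (0.896%) and at least 10 points lower 134 (1.21%). Because neighbouring genes can share a stretch, these were 94 and 125 distinct regions. With at least 10 positions required, 31 of 9552 starts were higher (0.325%) and 40 lower (0.419%). Of 9365 protein-coding starts 0.737% were higher and 0.972% lower, and of 1679 lncRNA starts 1.79% were higher and 2.56% lower.

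Hoxa5, a homeobox transcription factor gene, had the largest excess in ST-HSC among starts with at least 10 positions. Over 39 positions from chr6:52204088-52205587 it averaged 54.9% in ST-HSC against 16.4% in LT-HSC, a difference of 38.5 points, and the Control MPP library stood at 71.2%. The KI libraries had 76.9% in ST-HSC against 31.1% in LT-HSC. Coverage summed over the positions was 1852 reads in ST-HSC and 1996 in LT-HSC. It gave 55.1% (95% Wilson interval 52.8 to 57.3%) in ST-HSC and 16.6% (15.1 to 18.3%) in LT-HSC. Each read counts there once for every position it covers, so these intervals are too narrow. The start was also picked for its large difference in the same reads. Of the 39 positions, 37 were higher in ST-HSC and 23 passed Fisher's exact test and 25 points. The forward strand differed by 27.6 points and the reverse strand by 47.0.

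The positions fell in 2 stretches. Upstream of the start, in the printed sequence, the neighbouring CpGs at -224 and -228 bases from the start were both at 100% in ST-HSC and 26.3% in LT-HSC, on 12 reads in ST-HSC and 19 in LT-HSC. Further upstream, the position at -301 bases from the start had 73.9% in ST-HSC and 73.7% in LT-HSC on 134 reads in ST-HSC and 99 in LT-HSC. In Control the difference thus did not reach the upstream edge of the measured stretch. In the KI pair it did, with 86.8% in KI ST-HSC and 54.5% in KI LT-HSC at -301, and 48.4% and 6.25% at -342. Downstream, the position 413 bases after the start had 70.5% in ST-HSC against 9.68% in LT-HSC (61 reads in ST-HSC, 62 in LT-HSC), with an adjusted p of 2.87e-09 by Fisher's exact test. At 402 bases after the start the level was 46.7% in ST-HSC and 0% in LT-HSC, on 60 reads in ST-HSC and 61 in LT-HSC, and a count of 0 allows a level of up to 4.92%.

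Between 456 and 483 bases after the start the strands parted in ST-HSC. Forward positions there lay between 2.94 and 24.3% in ST-HSC and between 1.61 and 13.4% in LT-HSC. Reverse positions between 455 and 482 bases lay between 33.3 and 69.0% in ST-HSC and between 6.35 and 16.4% in LT-HSC. Neighbouring positions of 1 restriction fragment are read by the same reads and are not separate measurements, as the repeated values in the plot of the Hoxa5 start show. The strands of a fragment come from different reads.

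**Figure D2:**
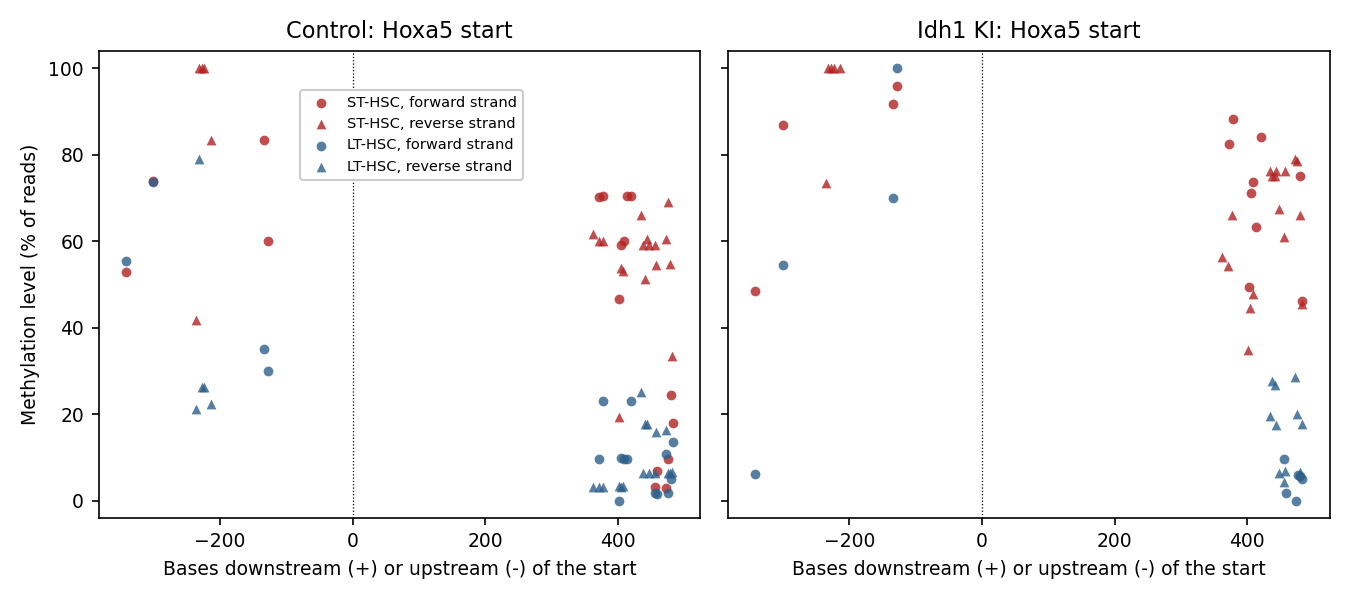
Methylation level (percent of reads, y axis) at single positions against the distance from the Hoxa5 start in bases (x axis) in Control (left) and Idh1 KI (right), ST-HSC in red and LT-HSC in blue, circles for the forward and triangles for the reverse strand. In Control 37 of 39 positions lie higher in ST-HSC than in LT-HSC; the KI panel shows those of the 39 positions that each KI library covered.

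The Hoxa cluster on chromosome 6 held 37 measured windows between 52158001 and 52260000. Of these 6 were at least 10 points higher in ST-HSC (16.2%, beside 2.92% of all windows) and none was lower, with a median difference of 0.18 points beside -0.23 over all windows. The cluster was looked at because Hoxa5 was already known to differ, so this count is a description. Besides the Hoxa5 window (46.8% in ST-HSC, 16.02% in LT-HSC, 48 positions), 3 of the 6 lay within the extent of Hoxa3. They had 48.1% in ST-HSC against 31.1% in LT-HSC (43 positions), 72.2% against 47.9% (14 positions, at the start of the lncRNA gene 5730596B20Rik) and 77.3% against 56.5% (7 positions). All 4 were at least 10 points higher on both strands. The other 2 had 5 positions each. In Hoxa13 the level was 17.7% in ST-HSC and 4.32% in LT-HSC. In the lncRNA gene Gm52902 it was 18.04% in ST-HSC and 0% of 55 reads in LT-HSC, which allows up to 5.45%.

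Windows at the starts of the other Hoxa genes lay within 10 points. The window at the Hoxa2 start had 6.85% in ST-HSC and 6.21% in LT-HSC, and that at the Hoxa10 start 0.549% in ST-HSC and 1.35% in LT-HSC over 40 positions. The window that reaches the start of Hoxa9, a homeobox gene known for stem cell self-renewal and leukaemia, had 5.57% in ST-HSC and 5.74% in LT-HSC over 10 positions.

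The 9 next largest excesses in ST-HSC at such starts were smaller. Gm40881 had 49.5% in ST-HSC against 23.9% in LT-HSC over 34 positions, 24.998 points apart on the forward and 26.3 on the reverse strand. Over positions covered in all 6 libraries its difference was 13.4 points, and in the KI pair it was 7.05 points. At 5730596B20Rik, the lncRNA gene beside Hoxa3, the level was 72.2% in ST-HSC against 47.9% in LT-HSC over 14 positions, and 92.2% in KI ST-HSC against 41.6% in KI LT-HSC. Nradd, which encodes a relative of neurotrophin receptors with a death domain, had 31.3% in ST-HSC against 12.8% in LT-HSC over 21 positions, of which 19 were higher in ST-HSC, and 53.2% in KI ST-HSC against 24.1% in KI LT-HSC. Arhgef18, which encodes a guanine nucleotide exchange factor, had 22.3% in ST-HSC against 6.38% in LT-HSC over 22 positions with 1441 reads in ST-HSC and 1371 in LT-HSC. Of these 22 positions 20 were higher in ST-HSC, and 1 was called. The KI pair had 17.98% in ST-HSC against 5.09% in LT-HSC there.

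The 5 other starts differed by 14.2 to 15.4 points. They were 2900026A02Rik, Gm32517, Scnn1b (a subunit of the epithelial sodium channel), Clvs2 and Rln3 (the peptide hormone relaxin-3). At 2900026A02Rik the positions lay on the reverse strand only, and with at least 20 reads required the difference was 4.06 points. In the KI pair 2900026A02Rik, Scnn1b and Clvs2 differed by 0.38, 0.48 and -1.67 points, and Gm32517 and Rln3 were not measured.

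The largest deficit in ST-HSC at a start with at least 10 positions was that of Muc20, a cell-surface mucin, with 67.1% in ST-HSC against 94.6% in LT-HSC over 12 positions. None of its positions was higher in ST-HSC, and the forward strand differed by -12.1 points and the reverse strand by -38.5. Slc22a3 followed with 28.1% in ST-HSC against 51.4% in LT-HSC over 22 positions, of which 10 were called lower. Another 4 of the positions were higher in ST-HSC, and the forward strand differed by -34.9 points and the reverse strand by -19.99. In the KI pair the Slc22a3 difference was -5.82 points, and the Muc20 start was not measured.

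Next came 5 lncRNA regions, Gm33326, Gm31295, Gm24463, Gm52066 and the overlapping pair Gm42156 and Gm36794, which share positions. They differed by -23.2, -22.3, -21.1 and -20.9 points, and the pair by -20.2 and -19.7. With at least 20 reads required, Gm33326 differed by -4.62 points, Gm24463 by -0.075 and Gm36794 by -9.28, all short of 10 points, while Gm52066 differed by -13.1 and Gm42156 by -13.03. The imprinted gene Mkrn3 had 25.4% in ST-HSC and 43.5% in LT-HSC, with -34.4 points on the forward strand and 5.62 on the reverse strand, and -2.79 points at 20 reads. Zfp760, a zinc finger gene, had 6.34% in ST-HSC against 24.1% in LT-HSC, nearly all of it from the reverse strand (-39.0 points, against -2.88 on the forward strand). In the KI pair ST-HSC was higher at all of these starts, at Gm33326 by 2.96 points, Gm31295 by 7.03, Gm24463 by 29.6 and Gm52066 by 7.57. There Gm42156 was higher by 4.52 points, Gm36794 by 5.64, Mkrn3 by 4.79 and Zfp760 by 2.42. Most starts were higher in KI ST-HSC, with 7422 of 10523 above 0 and a median of 0.670 points. A rise above 0 in KI is therefore not particular to these starts.

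**Figure D3:**
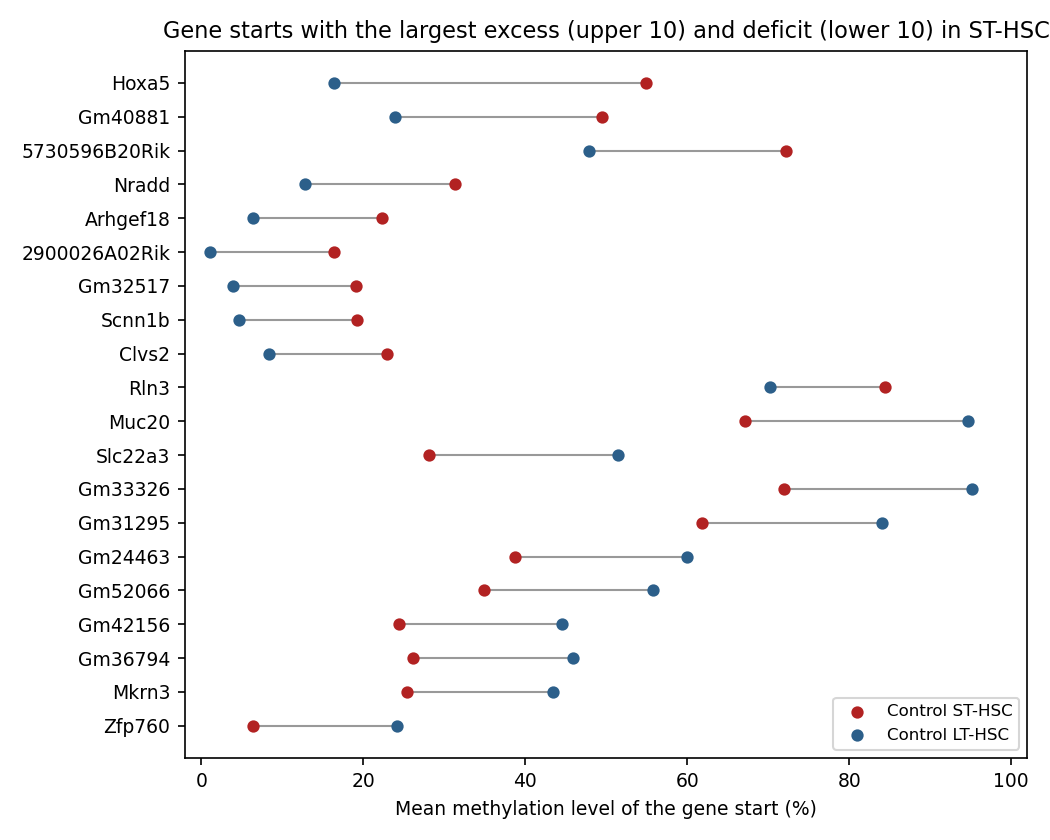
Mean methylation level (percent, x axis) of the 10 gene starts with the largest excess (upper) and the 10 with the largest deficit (lower) in Control ST-HSC (red) against Control LT-HSC (blue), among starts with at least 10 positions and at least 10 points apart; 1 library per point. Hoxa5 has the widest gap, with 54.9% in ST-HSC and 16.4% in LT-HSC.

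Few starts passed 10 points in all (0.896% higher and 1.21% lower), and the counts of 0 that follow say nothing particular to their lists. Of 30 stem cell regulators 14 were measured, all under 20% in both libraries and within 10 points, with a median difference of 0.014 points beside -0.098 over all starts. Meis1, a homeobox cofactor needed for stem cell maintenance, had 1.85% in ST-HSC and 3.58% in LT-HSC over 35 positions. Runx1, a master regulator of blood formation, had 7.12% in ST-HSC and 3.06% in LT-HSC over 39 positions, and Gata2, a zinc finger factor of stem cells, had 3.50% in ST-HSC and 1.31% in LT-HSC over 43. Kit, the stem cell factor receptor used in the sort, had 0.639% in ST-HSC and 0.667% in LT-HSC, and Mecom, a regulator of stem cell quiescence, had 4.50% in ST-HSC and 5.15% in LT-HSC. Flt3, a cytokine receptor that appears as stem cells become progenitors, had 6.39% in ST-HSC and 10.8% in LT-HSC over 10 positions. The starts of Cd48, Slamf1 (CD150), Ly6a (Sca-1), Hoxa9, Hoxb5 and Fam83a were not among the measured starts.

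The same held for priming genes of ST-HSC and progenitors (6 measured of 16, median difference -1.39 points), cell cycle genes (19 of 30, 0.023), myeloid genes (7 of 24, 1.02), lymphoid genes (10 of 25, 0.21) and erythroid and megakaryocyte genes (6 of 20, -0.15). None of their starts was 10 points apart. Nor was any of the 15 measured genes of DNA methylation, demethylation and the IDH enzymes. Dnmt3a had 2.82% in ST-HSC and 2.47% in LT-HSC over 167 positions with 6269 reads in ST-HSC and 7217 in LT-HSC. Dnmt1, Dnmt3b, Tet1, Tet2 and Tet3 differed by -0.93, -0.80, 3.18, 1.01 and 0.16 points. Homeobox and PAX genes of development outside the Hox clusters (24 of 49), clustered protocadherins (4 of 8) and non-blood markers (4 of 14) also had no start 10 points apart.

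In 3 lists single members passed 10 points, beside 0.896% of all starts higher and 1.21% lower. Of 16 measured Hox genes, Hoxa5 was higher and Hoxd4 lower, with 15.8% in ST-HSC and 33.2% in LT-HSC for Hoxd4 over only 5 positions. Of 19 measured imprinted genes, many of them methylated on 1 parental copy, Snrpn, Mkrn3 and Zrsr1 were lower in ST-HSC and none was higher. The medians over the list were 34.6% in ST-HSC and 35.7% in LT-HSC. Only 5 of the 19 starts were under 20% in both libraries, against 93.2% of all starts, so the shares of all starts are no like comparison. Among gene-start windows that were neither low nor high in MPP, 12.02% were lower in ST-HSC. Whether imprinted starts differed from other starts of like level was not tested. Snrpn had 38.6% in ST-HSC and 66.3% in LT-HSC over 6 reverse-strand positions. Zrsr1 had 29.9% in ST-HSC and 45.1% in LT-HSC over 18 positions, with 17 of them lower and 1 called. Of 12 germline genes, which are kept silent by methylated starts in body cells, Ddx4, the RNA helicase Vasa, had 88.4% in ST-HSC against 74.8% in LT-HSC. Tdrd1, a tudor protein of the piRNA pathway, had 59.3% in ST-HSC against 75.7% in LT-HSC, though with 7 of 21 positions higher in ST-HSC and -2.86 points at 20 reads. In the KI pair the difference was -1.57 points at Ddx4 and 4.00 at Tdrd1. The median of the germline list was 92.1% in ST-HSC and 93.5% in LT-HSC, and 0 of its 12 measured starts were under 20% in both. The shares of all starts are therefore no like comparison for this list either.

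The KI ST-HSC and KI LT-HSC libraries share no library with the Control pair, so they give a separate measurement of the windows chosen in Control. They differ from the Control pair in genotype, lie on lanes 3 and 7, and had median coverages of 27 reads in KI ST-HSC and 45 in KI LT-HSC. Genotype, lane and depth cannot be told apart between the pairs. Of all windows, 28555 were measured in both pairs. There, 2.25% reached 10 points above LT-HSC in Control ST-HSC and 2.88% lay as far below it, while in KI ST-HSC the shares were 3.33% above and 1.36% below.

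Windows higher in Control ST-HSC were often higher in KI ST-HSC too. Of the 116 windows higher on both strands in Control and measured in KI, 48 were at least 10 points higher in KI ST-HSC (41.4%, beside 3.33% of all windows), and 3 were at least 10 points lower. Above 0 in KI were 86 of the 116 (74.1%), beside 62.0% of all windows measured in both pairs. The median difference of the 116 windows was 17.5 points in Control and 5.76 points in KI, beside 0.592 points in KI over all windows. Among windows of 20 to 80% in MPP, where 24.3% of all windows were higher in KI ST-HSC, 35 of 62 were (56.5%).

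Windows lower in Control ST-HSC were split in KI. Of 121 measured in KI, 18 were at least 10 points lower in KI ST-HSC (14.9%, beside 1.36% of all windows) and 20 at least 10 points higher, and the median difference was -17.1 points in Control and -0.137 in KI. Above 0 in KI were 58 of the 121 (47.9%), beside 62.0% of all windows measured in both pairs. Among windows of 20 to 80% in MPP, 12 of 68 were lower (17.6%, beside 7.1% of all such windows) and 13 higher. Whether the excesses and the deficits differ in how often they recur was not tested. Gene starts gave similar counts. Of 66 starts higher in Control 19 were higher and 3 lower in KI, and of 99 lower in Control 8 were lower and 10 higher, while 1.01% of 10523 starts were higher in KI and 0.342% lower.

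**Figure D4:**
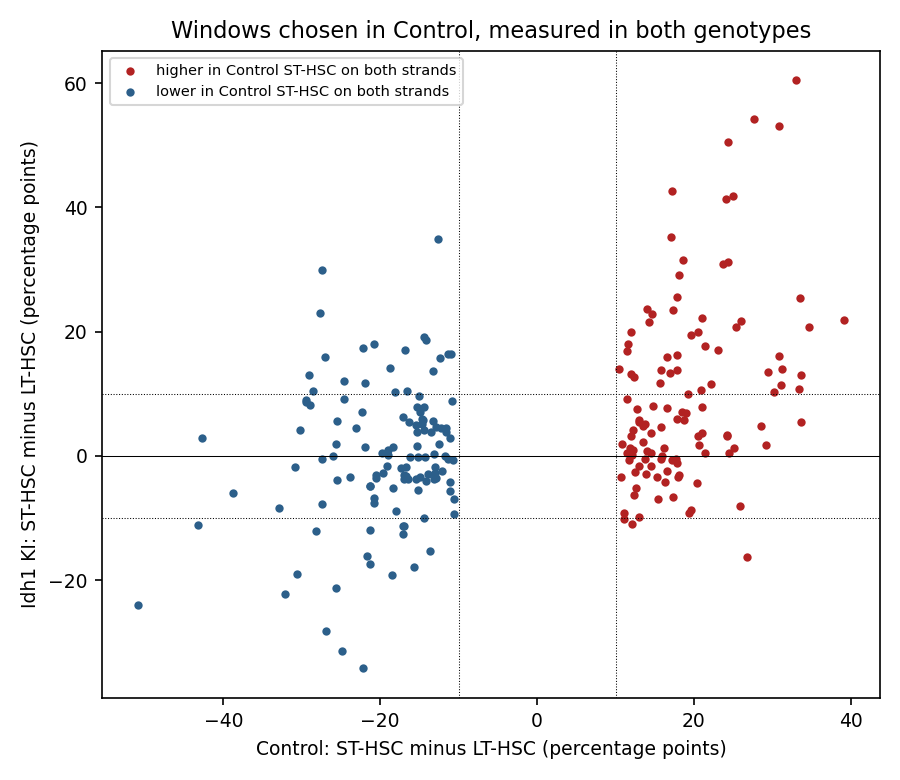
Difference in methylation (ST-HSC minus LT-HSC, percentage points) in the Control pair (x axis) and in the Idh1 KI pair (y axis) for the 116 windows higher (red) and the 121 lower (blue) on both strands in Control; dotted lines mark 10 points. The red windows lie mostly above 0 in KI (86 of 116), as do 62.0% of all windows measured in both pairs. Of the blue windows, 58 of 121 lie above 0.

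Across all 6 libraries, the 106 windows of the higher set that every library covered had medians of 48.6% in ST-HSC and 28.4% in LT-HSC of Control, and 65.3% in ST-HSC and 44.9% in LT-HSC of KI. Their medians in MPP were 56.2% in Control and 64.6% in KI. The 110 windows of the lower set had medians of 54.0% in ST-HSC and 75.6% in LT-HSC of Control, while KI had 69.6% in both. Their medians in MPP were 63.9% in Control and 71.1% in KI. For the higher set the Control LT-HSC median was thus the lowest of the 6 libraries, and for the lower set it was the highest. Since the Control LT-HSC values took part in the choice of these windows, this order is a description. The positions averaged within a window can also differ between the Control pair, the KI pair and each MPP library.

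The 48 windows higher in both genotypes were ranked by the smaller of their 2 differences, a choice made after their values were seen. They lay on 16 chromosomes, 30 inside genes, 10 between genes and 8 at gene starts, namely those of Hoxa5, 5730596B20Rik, Nradd, Gnas, Tinagl1, Cend1, Aff3 and Il11. Of the 39 with at least 3 positions on each strand in KI, 25 were past 10 points on both strands there as well.

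Ranks 2 and 3 were held by the Hoxa5 window, with 46.8% in Control ST-HSC against 16.02% in Control LT-HSC and 81.7% in KI ST-HSC against 28.6% in KI LT-HSC, and an intergenic window on chromosome 5 (96331001 to 96332000). That intergenic window had 76.8% in Control ST-HSC against 49.2% in Control LT-HSC, and 67.6% in KI ST-HSC against 13.4% in KI LT-HSC.

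Further windows of the 48 were picked for the known roles of their genes, after their values were seen. Cbfa2t3, a corepressor of the ETO family active in blood progenitors, had 49.0% in Control ST-HSC against 24.1% in Control LT-HSC, and 66.4% in KI ST-HSC against 24.5% in KI LT-HSC. Relb, an NF-kappaB subunit, had 42.5% in Control ST-HSC against 18.1% in Control LT-HSC over 23 positions, and 59.7% in KI ST-HSC against 28.5% in KI LT-HSC. Nfix, a nuclear factor I protein, had 32.6% in Control ST-HSC against 8.53% in Control LT-HSC, and 61.4% in KI ST-HSC against 20.03% in KI LT-HSC.

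A window in Runx3, a Runt-family factor, had 46.0% in Control ST-HSC against 28.8% in Control LT-HSC over 17 positions, and 82.5% in KI ST-HSC against 39.8% in KI LT-HSC. Gfi1, a zinc finger repressor of stem cells and granulocytes, had 24.8% in Control ST-HSC against 7.87% in Control LT-HSC over 21 positions, and 47.3% in KI ST-HSC against 34.0% in KI LT-HSC. Control MPP stood higher still at 73.4% in Cbfa2t3, 84.2% in Runx3 and 61.6% in Gfi1, but at 37.2% in Relb. The positions behind these levels differ between the pairs and MPP, with 12 in the Control pair and 5 in the KI pair for Cbfa2t3.

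The 18 windows lower in both genotypes included 7 at gene starts. First was an intergenic window on chromosome 11 (87757001 to 87758000), 19450 bases from Supt4a, with 27.4% in Control ST-HSC against 54.4% in Control LT-HSC and 40.8% in KI ST-HSC against 69.1% in KI LT-HSC. It was read 1465 times in Control ST-HSC and 1103 times in Control LT-HSC. A window inside 2900026A02Rik had 43.4% in Control ST-HSC against 68.2% in Control LT-HSC, and 43.0% in KI ST-HSC against 74.3% in KI LT-HSC.

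The intergenic chromosome 5 window with the largest deficit in Control had 57.5% in KI ST-HSC against 81.6% in KI LT-HSC. Abat, the GABA transaminase, had 76.5% in Control ST-HSC against 98.6% in Control LT-HSC, and 65.8% in KI ST-HSC against 100% in KI LT-HSC. At the start of Hpn, which encodes the serine protease hepsin, Control ST-HSC had 68.2% against 98.8% in Control LT-HSC, and KI ST-HSC 78.4% against 97.3% in KI LT-HSC. Another 20 windows were lower in Control ST-HSC and higher in KI ST-HSC, led by a window in Icam5, an adhesion molecule gene, with 53.2% in Control ST-HSC against 80.6% in Control LT-HSC and 71.2% in KI ST-HSC against 41.3% in KI LT-HSC.

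**Figure D5:**
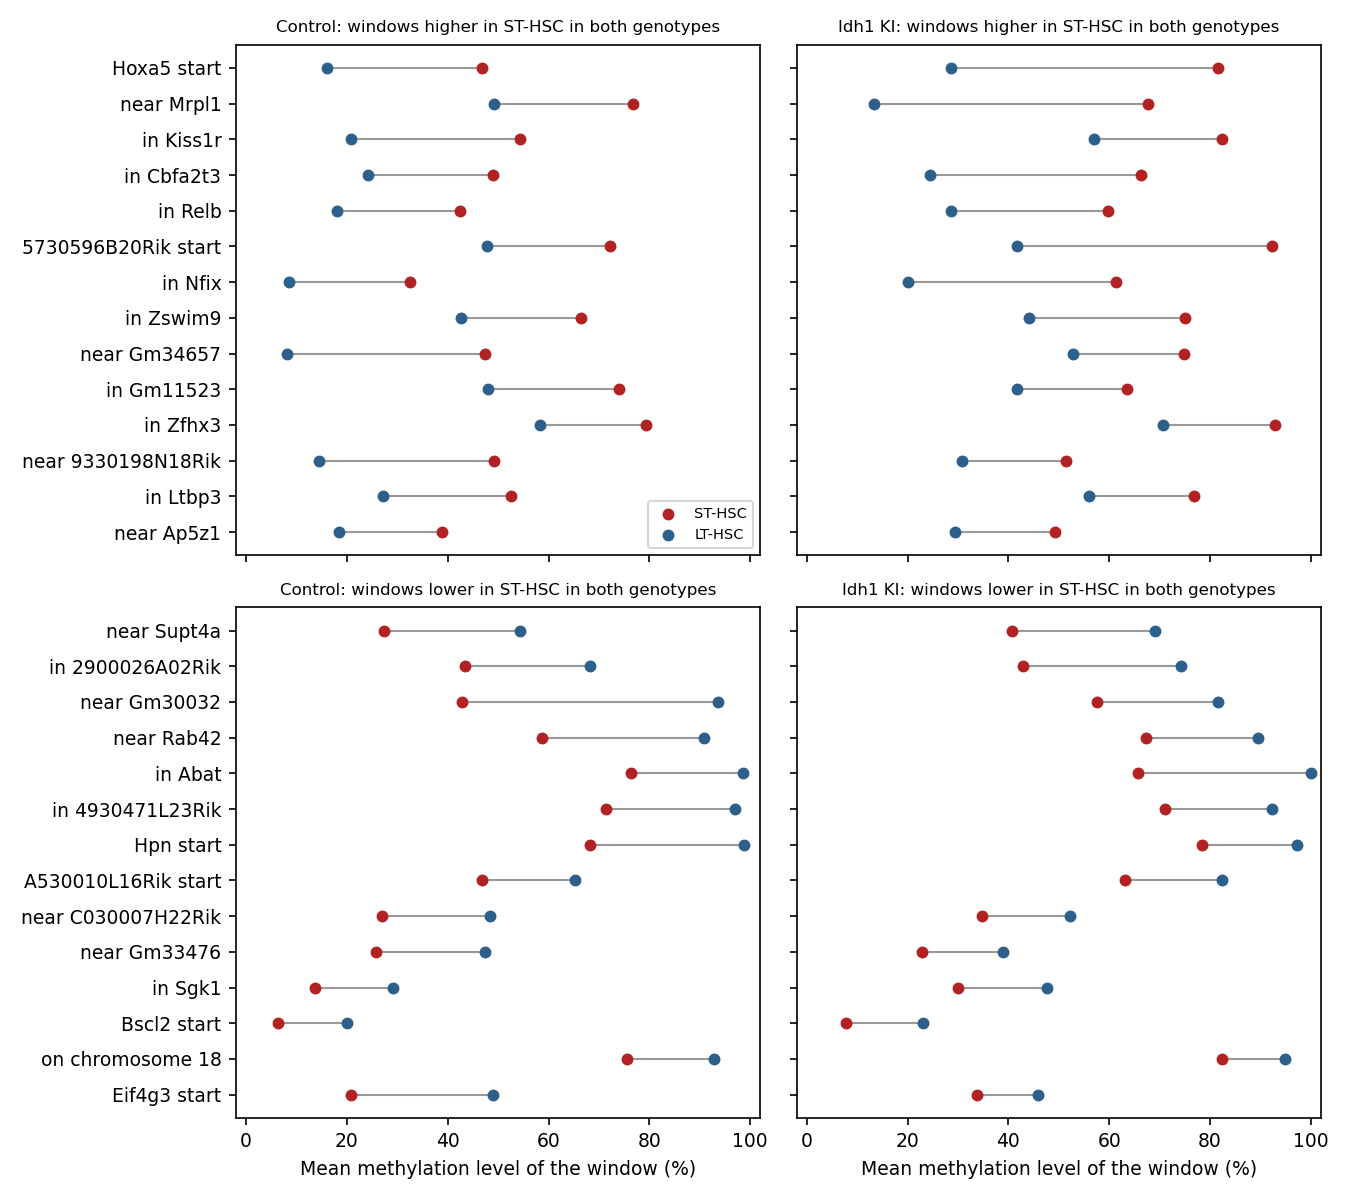
Mean methylation level (percent, x axis) of windows higher (top, ranks 2 to 15 of 48) and lower (bottom, ranks 1 to 14 of 18) in ST-HSC (red) than in LT-HSC (blue) in both genotypes, Control on the left and Idh1 KI on the right, ordered by the smaller of the 2 differences. The Hoxa5 window, of rank 2, is drawn first in the upper panels with 46.8% in ST-HSC and 16.02% in LT-HSC of Control, and the window near Supt4a the lower panels with 27.4% in ST-HSC and 54.4% in LT-HSC of Control.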

How the data were processed

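The 2 Control libraries, ST-HSC and LT-HSC, were compared, with the 4 other libraries beside them. The labels' protocols give 10 ng of DNA per library, fragments of 150 to 400 bp, 5 libraries per lane and 30% PhiX on a HiSeq2000. Per the submitters' processing notes, reads were handled with Bismark 0.10.0, SAMtools 1.0 and methylKit 0.9.1 on mm10. The sources used here give no settings, no conversion rate and no word on duplicate reads. Each deposited file lists cytosine positions with the read count (coverage, 10 or more). Beside it stand the percent of C, taken as methylated, and of T, per the file headers. Percent and coverage together gave whole methylated reads at 100% of positions, with a tolerance of 0.01% of the coverage.

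Levels of windows and gene starts are unweighted means over positions. Window levels of the KI pair use positions covered in both KI libraries, and those of an MPP library the positions covered in it. A window or start was called at 10 points, and a position at an adjusted p under 0.01 by Fisher's exact test (SciPy 1.17.1) and 25 points. Python 3.11.15, pandas 2.3.3 and NumPy 2.4.6 were used, and the steps were tested on simulated data. Starts came from a RefSeq promoter table of GRCm38.p6, taking for each gene the start with the most positions. Named are the 10 windows with the largest difference each way past 10 points on both strands, the 10 such starts with at least 10 positions, list members past 10 points (up to 4 per list) and 19 genes always, where measured (13 were). The members, the 13 gene lists and the naming rule were chosen with earlier results of these data known. Alternatives were coverage, thinning to 10 reads, read weights, merged strands, thresholds, shifted windows and positions in all 6 libraries. Exons, CpG islands and the sequence of windows were not analysed here, and 1 of the named windows is not reported here.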

Additional observations from a re-analysis of the deposited data

Results flagged for a closer look

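Described here are 3 results for which the ST-HSC minus LT-HSC difference had opposite signs in the KI pair and in the Control pair. They are not the only ones. The starts of Gm33326, Gm31295, Mkrn3, Zfp760, Tdrd1 and Ddx4, among others, also changed sign. Among all starts compared with KI, 7422 of 10523 were above 0 in the KI pair. So did the windows in Aoc1 and Icam5, among others. With 1 library per group none of these differences between the pairs was tested. At the start of the lncRNA gene Gm24463 the difference was -21.1 points in Control and 29.6 points in KI. Of its 20 Control positions 11 were lower and 9 higher, and with at least 20 reads required the Control difference was -0.075 points. At the start of the imprinted gene Zrsr1 the difference was -15.2 points in Control, with 17 of 18 positions lower, and 20.99 points in KI. Over the 626163 positions covered in all 4 libraries the mean difference was -0.293 points in Control (22.8% in ST-HSC, 23.1% in LT-HSC) and 0.795 points in KI (24.1% in ST-HSC, 23.3% in LT-HSC). Lane and depth differ between the pairs as well as genotype, and their part was not tested.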

How the results depend on the processing

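No paired analysis was possible because each group was 1 library, and for the same reason no replicate could be left out. Of the alternatives run, none turned the direction of a named window or gene start whose main difference was past 10 points, where a value could still be computed. Many named items had too few positions left under some alternatives. Muc20, Scnn1b, Clvs2 and Gm32517, for example, had no value with at least 20 reads required. The mean difference was -0.344 points with at least 20 reads, -0.261 over positions covered in all 6 libraries, -0.457 with strands merged and 1.50 weighted by reads. With at least 20 reads, counts given as higher and lower were 615 and 763 windows, 88 and 89 windows on both strands, and 60 and 82 gene starts. Over positions covered in all 6 libraries they were 5302 and 6586 positions, 507 and 627 windows, 76 and 68 windows on both strands, and 69 and 86 gene starts. At 5 points they were 3199 and 4371 windows, 493 and 634 on both strands, and 392 and 460 gene starts. At 25 points they were 103 and 159 windows, 8 and 16 on both strands, and 9 and 11 gene starts. With at least 10 positions they were 198 and 195 windows and 31 and 40 gene starts. So the share of higher windows was 50.4% there, against 42.4% in all windows, and 52.8% on both strands over positions in all 6 libraries, against 45.4%. With 10 points in place of 25, 13518 positions were higher and 15336 lower. At an adjusted p under 0.05, 13007 were higher and 16042 lower. Thinned to 10 reads, 0 positions were called either way by Fisher's exact test. At that depth few positions can pass an adjusted p under 0.01. The thinned counts higher and lower were 1573 and 2079 windows, 224 and 300 on both strands, and 148 and 177 gene starts. All were larger than the main counts of 1079 and 1468, 153 and 184, and 99 and 134.

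The comparisons with the KI pair were varied by settings chosen after seeing the data. Of windows higher in Control, 27.7% were higher in KI when chosen over all positions, and between 37.2 and 48.1% under the 5 other settings. Among values that could be recomputed under the alternatives, 13 of named windows moved beyond their counting interval and 65 did not. For named gene starts 40 did and 130 did not, and items without a value are not counted. The counting intervals take a read once for every position it covers and are too narrow. The spread between pools of mice was not measured by 1 library a group.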
